A study of Mus musculus with 10 samples.

Results

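The genes described here are 9 components of ER-associated degradation (ERAD): the derlins Derl1, Derl2 and Derl3, the SEL1L-HRD1 complex genes Sel1l and Syvn1 with their partner Herpud1, and the EDEM lectins Edem1, Edem2 and Edem3. They were chosen by symbol, and all 9 of 9 were found among the 47340 genes of the expression table and among the 13065 genes tested. Pancreatic islets were isolated from 12-wk-old, chow-fed male mice, recovered overnight in complete CMRL medium, and sequenced as polyA RNA with 1 library per mouse. FL mice (5 libraries) carried floxed alleles of Fitm2, the gene of the lipid droplet protein FIT2, and are labelled wild type for genotype and Flox by title; KO mice (5 libraries) were βFIT2KO littermates that carried the same floxed alleles and the transgene of B6.Cg-Tg(Ins2-cre)25Mgn/J, in which a rat insulin promoter drives Cre recombinase. Both groups thus shared the floxed alleles, the deletion was directed to β cells while the other islet cells kept the gene, and no library came from mice with Cre alone, so Cre and the loss of FIT2 cannot be told apart. The comparison of KO with FL bears on whether islets without β cell FIT2 differ in the transcripts of the machinery that removes proteins from the ER.

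ERAD clears proteins that fail to fold in the endoplasmic reticulum. EDEM proteins trim mannose from misfolded glycoproteins and so mark them, SEL1L holds the membrane-embedded ubiquitin ligase HRD1 (the product of Syvn1) and receives the marked clients, derlins help to move them across or out of the membrane, and the ATPase VCP pulls them into the cytosol for the proteasome. β cells make very large amounts of proinsulin, a protein prone to misfolding, and several ERAD genes are known targets of the XBP1 and ATF6 branches of the unfolded protein response, the program that the ER starts under folding stress.

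KO islets held 3.59 times as much Derl3 transcript as FL islets, 1.25 times as much Edem2 and 0.80 times as much Derl2, while the other 6 genes did not pass the test. Transcripts were given as FPKM, fragments per kilobase of exon scaled to the mapped fragments of each library, and compared with limma on log2(FPKM + 1), so that a fold change understates the change of a gene with a low level. A gene was called at an adjusted p no higher than 0.05 over all 13065 genes tested. Of the 9 genes, 2 were called higher and 1 lower in KO, which is 33.3% of them, beside 25.5% of all tested genes called in either direction, 9.05% called higher and 16.5% called lower. The median log2 fold change of the 9 genes was 0.13 and that of all tested genes was −0.06. FL and KO values did not overlap in 1 of the 9 genes, Derl3, beside 19.1% of all tested genes. At an unadjusted p below 0.05, 6 of the 9 were higher and 1 lower, beside 1679 and 3249 of all tested genes. The count of called genes turns on how the libraries were scaled: rescaled by median ratio, 6 of the 9 were called higher and 1 lower, beside 1614 and 1530 of all tested genes.

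**Figure D1:**
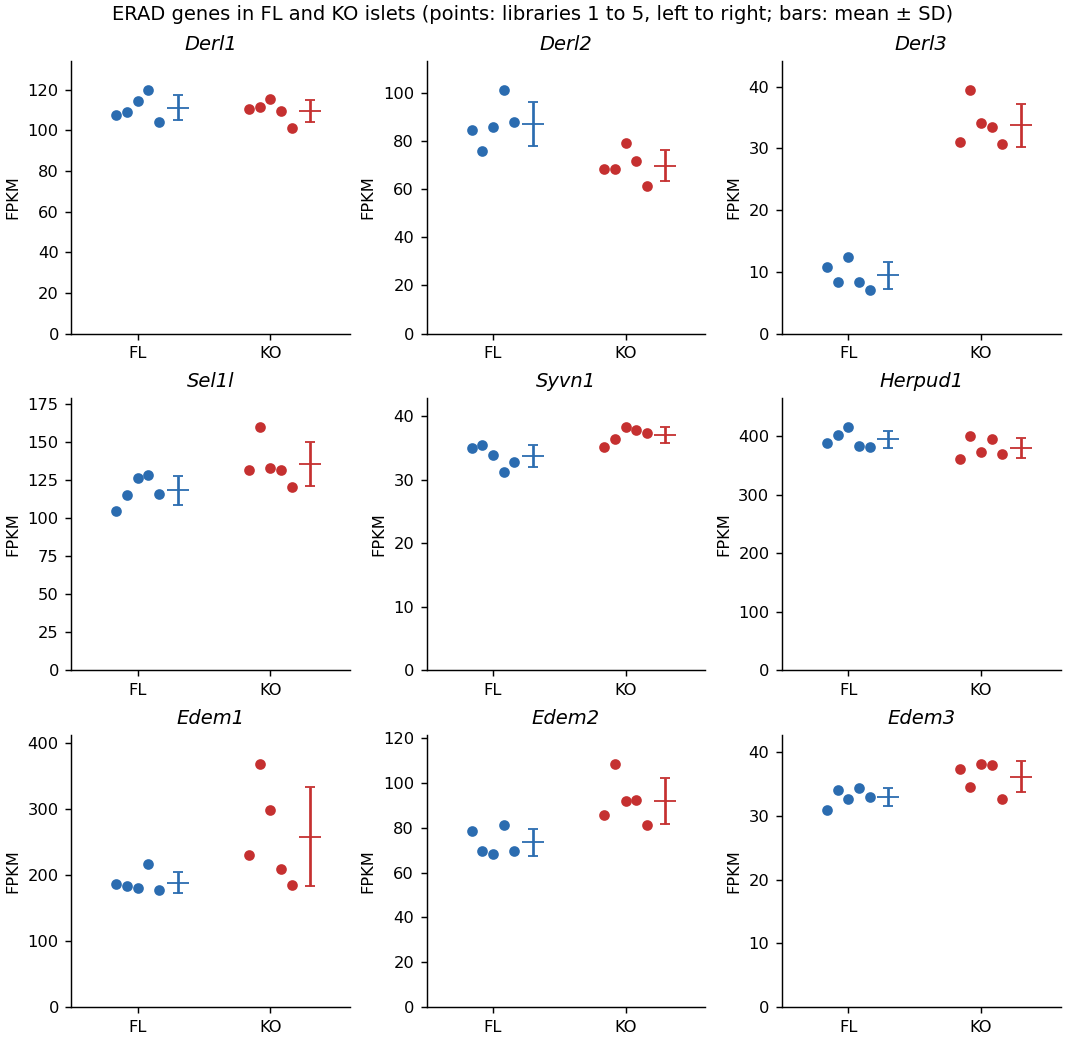
FPKM of the 9 ERAD genes (vertical axes, each from 0) in the 5 FL and 5 KO libraries, with points for libraries 1 to 5 from left to right and the mean ± SD beside them. Derl3 is the gene whose KO libraries, from 30.8 to 39.4 FPKM, all lie above the FL libraries, from 6.97 to 12.4 FPKM; in the other 8 genes the groups overlap.

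The libraries and their labels were compared first. Fitm2 was at 16.9, 30.5, 16.5, 37.1 and 15.5 FPKM in FL1 to FL5 and at 4.56, 4.301, 7.75, 9.13 and 8.998 FPKM in KO1 to KO5, with no overlap and a log2 fold change of −1.58 (SE 0.28, limma adjusted p = 0.00228). Of the β cell markers, Ins1, Ins2 and Iapp are listed at 0 in all 10 libraries, which in islets can be a failed estimate, and the other 6 (Mafa, Pdx1, Nkx6-1, Slc2a2, Ucn3 and Slc30a8) were all called lower in KO, with a summed level of 1113 to 1407 FPKM in FL and 676 to 921 FPKM in KO. In whole islets, fewer cells of a type and less RNA per cell cannot be told apart, and this holds for every value below. None of the 15 acinar markers was called by limma (0 at an unadjusted p below 0.05, and 0 by the exact Wilcoxon rank test), and they summed to 4987 to 13386 FPKM in FL and 3379 to 24567 FPKM in KO, with KO5 the highest and KO2 and KO3 the lowest. Markers called higher in KO, beside 9.05% of all tested genes, were 3 of 6 tested for macrophages and leukocytes (summed level 131 to 155 FPKM in FL and 184 to 224 FPKM in KO), 3 of 5 for endothelium (144 to 167 and 160.4 to 223 FPKM, which overlap) and 4 of 4 for stroma (10.975 to 18.5 and 22.0 to 30.4 FPKM), and none of these lists had a gene called lower. Among the 8 plasma and B cell markers, the summed level was 6.83 to 11.2 FPKM in FL and 5.21 to 12.2 FPKM in KO, and Jchain, Mzb1, Ms4a1, Cd79b and Pou2af1 lay between 0 and 0.5 FPKM in every library. Of the 2 tested genes of that list, Cd79a was called lower, from a mean of 3.51 to 1.90 FPKM with no overlap (log2 fold change −0.63, limma adjusted p = 0.00962), and Sdc1, at 2.82 to 10.4 FPKM, was not called. Of the 4 tested duct markers (summed level 594 to 659 FPKM in FL and 512 to 642 FPKM in KO), Cftr was called higher, at 0.00986 to 0.0552 FPKM in FL and 1.67 to 2.53 FPKM in KO (log2 fold change 1.59, limma adjusted p = 1.13e-06), and Krt7 lower (−0.34, limma adjusted p = 0.00459). Of the 7 tested alpha, delta and PP cell markers (summed level 10472 to 26404 FPKM in FL and 16214.5 to 22399.9 FPKM in KO), Sst, the gene of the delta cell hormone somatostatin, was called lower (−0.29, limma adjusted p = 0.0303), and Gcg is listed at 0 in all 10 libraries. The part of these markers in the results below was not tested, apart from the acinar level, which was also fitted as a covariate. Relative depth, read from the spacing of low values, was 1.404 to 2.41 times that of FL1 in FL2 to FL5 and 1.52 to 2.06 times that of FL1 in the KO libraries.

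Upstream sequences of these genes are shown because the unfolded protein response acts on ERAD genes through known promoter elements. The windows ran from 250 bases before to 50 bases after the start site (RefSeq, GRCm38.p6). There were 9 windows for 8 of the 9 genes, Derl2 having 2 start sites, and Derl1 had no entry. Both strands were searched. The ER stress response element (ERSE: CCAAT, any 9 bases, CCACG) was found in Derl3, at −156 to −138 from the start site and in reverse orientation, and in Syvn1, at −44 to −26, and it is in 0.119% of 32851 promoters of the same length. The element ERSE-II (ATTGG, any base, CCACG) was found in Herpud1 at −52 to −42 and is in 0.0365% of promoters, and the ATF4 composite core TTGCATCA was found in Herpud1 at −112 to −105 and is in 0.895% of promoters. In capitals are the ERSE of Derl3 and Syvn1 and the ATF4 core and ERSE-II of Herpud1, each stretch written 5′ to 3′ on the plus strand, the strand of all 3 genes:
Derl3, chr10:75893190-75893270: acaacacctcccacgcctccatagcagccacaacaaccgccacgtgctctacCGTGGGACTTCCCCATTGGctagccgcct
Syvn1, chr19:6046522-6046560: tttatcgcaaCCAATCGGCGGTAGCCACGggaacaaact
Herpud1, chr8:94386297-94386397: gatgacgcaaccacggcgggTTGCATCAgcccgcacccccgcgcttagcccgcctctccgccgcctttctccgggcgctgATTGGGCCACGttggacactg
The shorter core CCACG, which is part of both elements, was present in at least 1 window of each of the 8 genes, though in only 1 of the 2 of Derl2, and in 32.8% of promoters. TGACGTGG, the core of the XBP1-binding element UPRE, and TGACGTCA, a core bound by CREB and ATF proteins, were in 0 of the 9 windows, and they are in 0.676% and 1.79% of promoters. Of the genes with these elements, Derl3 was called higher in KO, and Syvn1 and Herpud1, with log2 fold changes of 0.13 and −0.06, were not called.

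Among the derlins, Derl3 was called higher and Derl2 lower in KO, and Derl1 was not called. Derl3 (chr10:75893413-75895941, plus strand, GRCm38, GENCODE M21) encodes the derlin that is abundant in professional secretory cells and induced by ER stress. It was at 10.8, 8.42, 12.4, 8.33 and 6.97 FPKM in FL1 to FL5 and at 31.1, 39.4, 34.03, 33.4 and 30.8 FPKM in KO1 to KO5, so that all KO libraries lay far above all FL libraries. Means were 9.402 ± 2.197 (FL) and 33.7 ± 3.48 (KO) FPKM (n = 5, SD), and the log2 fold change was 1.76 (SE 0.13, limma adjusted p = 5.23e-06), with a 95% interval of 1.47 to 2.05. An exact two-sided permutation test gave p = 0.00794, the smallest p that 5 against 5 libraries allow. By log2 fold change Derl3 ranked 48 among the 1183 genes called higher, and the study also picked it from these libraries, so its selection by symbol is not independent of that pattern. Of all tested genes, 39.4% had a mean level below that of Derl3 in FL and 74.6% in KO. Fitted with the summed acinar marker level as a covariate, the log2 fold change was 1.75 (limma adjusted p = 2.46e-05), and leaving out any 1 library gave 1.67 to 1.86.

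Derl2 (chr11:71007164-71019841, minus strand), a derlin found in most cell types, moved the other way. The FL libraries had 84.8, 76.1, 85.9, 101 and 87.9 FPKM and the KO libraries 68.4, 68.4, 79.3, 71.5 and 61.2 FPKM. FL4 was the highest and KO5 the lowest of the 10, and KO3 lay above FL2, so the groups overlapped. The mean fell from 87.2 ± 9.03 to 69.8 ± 6.52 FPKM (n = 5, SD), a log2 fold change of −0.32 (SE 0.08, limma adjusted p = 0.0174). Under an exact Wilcoxon rank test over all genes, Derl2 did not pass (adjusted p = 0.0642). That test called only genes whose groups did not overlap, so this restates the overlap of KO3 with FL2. An exon of Derl2 shares 231 bases with Mis12 on the opposite strand; the libraries were stranded, but the strand setting of the counting is not given in the sources used here.

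Derl1 (chr15:57869502-57892448, minus strand), the derlin with the highest level in both groups, was at 107, 109, 115, 119.7 and 104 FPKM in FL and at 111, 111, 115, 109.6 and 101 FPKM in KO. The groups overlapped almost fully, with means of 111 ± 6.14 (FL) and 109.6 ± 5.32 (KO) FPKM (n = 5, SD). Its log2 fold change was −0.02 (SE 0.05, limma adjusted p = 0.829), with a 95% interval of −0.13 to 0.10, and its sign turned under each of the 4 rescalings (median ratio, upper quartile, quantile, same sum), where it was between 0.025 and 0.054.

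Seen as a family, the derlins had a similar summed level in both groups and a different makeup. FPKM is a level per exon length, so the 3 genes can be added. Their summed level was 208 ± 14.0 FPKM in FL, from 194 to 229 FPKM, and 213 ± 13.2 FPKM in KO, from 193 to 229 FPKM (n = 5, SD). Derl3 made up 4.5 ± 1.02% of that sum in FL, from 3.5% to 5.8%, and 15.8 ± 1.29% in KO, from 14.8% to 18.0%. Derl2 made up 41.9 ± 2.18% in FL and 32.7 ± 1.38% in KO, and Derl1 53.5 ± 1.71% and 51.5 ± 0.97% (n = 5, SD). The ratio of Derl3 to Derl2 was 0.079 to 0.145 in the FL libraries and 0.429 to 0.576 in the KO libraries. Scaling by 1 factor per library leaves these shares as they are, which quantile scaling does not. No p is given for the sums, shares and ratios, since the genes that enter them were chosen with results known.

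**Figure D2:**
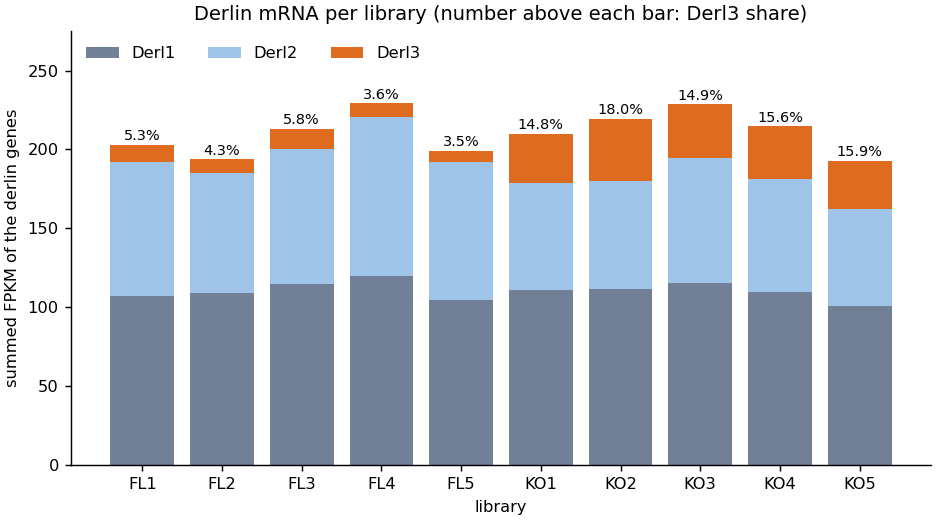
Stacked bars give the FPKM of Derl1, Derl2 and Derl3 in each of the 10 libraries (vertical axis from 0, summed FPKM), with the share of Derl3 printed above each bar. The bars have similar heights, 193 to 229 FPKM, while the Derl3 share is 3.5% to 5.8% in FL and 14.8% to 18.0% in KO.

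In the SEL1L-HRD1 complex, 0 of 3 genes were called by limma, beside 25.5% of all tested genes. At an unadjusted p below 0.05, 2 (Sel1l and Syvn1) were higher, beside 1679 of 13065 tested genes. The exact Wilcoxon rank test called 0 of the 3, beside 2500 of all tested genes. Rescaled by median ratio, Sel1l and Syvn1 were both called higher (limma adjusted p = 0.0156 and 0.0268), beside 1614 of all tested genes. Sel1l (chr12:91806043-91849157, minus strand) encodes the scaffold that stabilises HRD1 and receives clients. It was at 105, 115, 126, 128 and 116 FPKM in FL and 132, 159.7, 133, 131 and 121 FPKM in KO. KO2 stood above all others, and KO5 lay below FL3 and FL4. Means were 118 ± 9.54 (FL) and 135 ± 14.5 (KO) FPKM (n = 5, SD), with a log2 fold change of 0.19 (SE 0.08, limma adjusted p = 0.1); without KO2 it was 0.13 (limma adjusted p = 0.166).

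Syvn1 (chr19:6046576-6053712, plus strand) encodes HRD1, the ubiquitin ligase of the complex. Values of 35.1, 35.4, 33.96, 31.3 and 32.8 FPKM in FL and 35.1, 36.3, 38.3, 37.8 and 37.4 FPKM in KO differed by little, and the lowest KO library, KO1, lay between FL libraries. It averaged 33.7 ± 1.71 (FL) and 36.99 ± 1.28 (KO) FPKM (n = 5, SD), and the log2 fold change was 0.13 (SE 0.05, limma adjusted p = 0.0622). With the acinar marker level as a covariate it passed, at 0.14 (limma adjusted p = 0.0358). Exons of Syvn1 share 91 bases with Mrpl49 on the opposite strand. Per length, Sel1l was 3.52 ± 0.43 times the level of Syvn1 in FL and 3.66 ± 0.45 times in KO (n = 5, SD), with overlapping ranges of 2.98 to 4.10 and 3.23 to 4.39.

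Herpud1 (chr8:94386438-94395377, plus strand) encodes HERP, a membrane protein that assembles with HRD1 and derlins and is among the classic stress-induced ER genes. It had the highest level of the 9 genes, at 388, 402, 415, 383 and 382 FPKM in FL and 362, 399, 372, 395 and 369 FPKM in KO. The groups overlapped, with means of 394 ± 14.3 (FL) and 379 ± 16.8 (KO) FPKM (n = 5, SD). Its log2 fold change was −0.06 (SE 0.05, limma adjusted p = 0.413), with a 95% interval of −0.16 to 0.05, and the sign turned under rescaling by median ratio, upper quartile and quantiles, at 0.00057 to 0.011. Herpud1 varied least of the 9 genes among FL mice, with a coefficient of variation of 3.6%, and in KO it was at 4.4%, above Syvn1 at 3.4%, beside medians of 8.9% and 9.8% over the tested genes.

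All 3 EDEM lectins had higher means in KO, and Edem2 was called. Edem2 (chr2:155701677-155729475, minus strand) encodes the protein that starts mannose trimming. It was at 78.7, 69.8, 68.5, 81.4 and 69.6 FPKM in FL and 85.9, 109, 92.01, 92.5 and 81.3 FPKM in KO, where KO2 was the highest and KO5, the lowest KO library, fell just below FL4. The mean rose from 73.6 ± 5.99 to 92.1 ± 10.4 FPKM (n = 5, SD), a log2 fold change of 0.32 (SE 0.08, limma adjusted p = 0.0162), and it was 0.25 without KO2 (limma adjusted p = 0.0215). Edem2 did not pass the exact Wilcoxon rank test (adjusted p = 0.0642), which called only genes without overlap, so this restates that KO5 lay below FL4. By log2 fold change it ranked 806 among the 1183 genes called higher.

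Edem1 (chr6:108828641-108859356, plus strand) encodes a lectin that hands glycoprotein clients to SEL1L. FL libraries had 187, 183, 180.3, 216 and 177 FPKM, and FL4 stood above the other 4. KO libraries had 230.0, 369, 299, 210.0 and 184 FPKM, so that KO2 and KO3 were far above all FL libraries while KO4 and KO5 lay within the FL range. This spread, a coefficient of variation of 29.0% in KO and 8.3% in FL, was the widest in KO of the 9 genes. Means were 189 ± 15.7 (FL) and 259 ± 75.1 (KO) FPKM (n = 5, SD), with a log2 fold change of 0.41 (SE 0.16, limma adjusted p = 0.0916), larger than that of Edem2 but with a larger standard error. Edem1 passed without KO5 (0.52, limma adjusted p = 0.0335) and with the acinar marker level as a covariate (0.32, limma adjusted p = 0.0308), and it was 0.27 without KO2 (limma adjusted p = 0.142). Among the KO libraries, the acinar marker sum was lowest in KO2 and KO3, where Edem1 was highest, and highest in KO5, where Edem1 was lowest; FL2, FL3 and FL5 had less Edem1 than KO5. Among the FL libraries, FL4 had the lowest acinar marker sum (4987 FPKM) and the highest Edem1. The other FL libraries did not follow that order: FL5 had the next lowest sum (7137 FPKM) and the lowest Edem1. FL1 and FL2, with the highest sums (13260 and 13386 FPKM), had more Edem1 than FL3 and FL5.

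Edem3 (chr1:151755371-151822051, plus strand) encodes a further mannosidase of the family. It was at 30.9, 34.01, 32.7, 34.3 and 32.9 FPKM in FL and 37.4, 34.5, 38.2, 38.05 and 32.7 FPKM in KO. KO1, KO3 and KO4 were well above every FL library and KO2 just above FL4, the highest of them, whereas KO5 lay within the FL range. Its means were 32.97 ± 1.36 (FL) and 36.2 ± 2.46 (KO) FPKM (n = 5, SD), with a log2 fold change of 0.13 (SE 0.05, limma adjusted p = 0.11); without KO5 it passed, at 0.16 (limma adjusted p = 0.0399). The summed level of the 3 EDEM genes was 295 ± 21.5 (FL) and 387 ± 84.7 (KO) FPKM (n = 5, SD), with KO5 (298 FPKM) inside the FL range of 279.7 to 332 FPKM. Edem1 made up 63.9 ± 0.80% of that sum in FL and 66.1 ± 4.65% in KO.

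**Figure D3:**
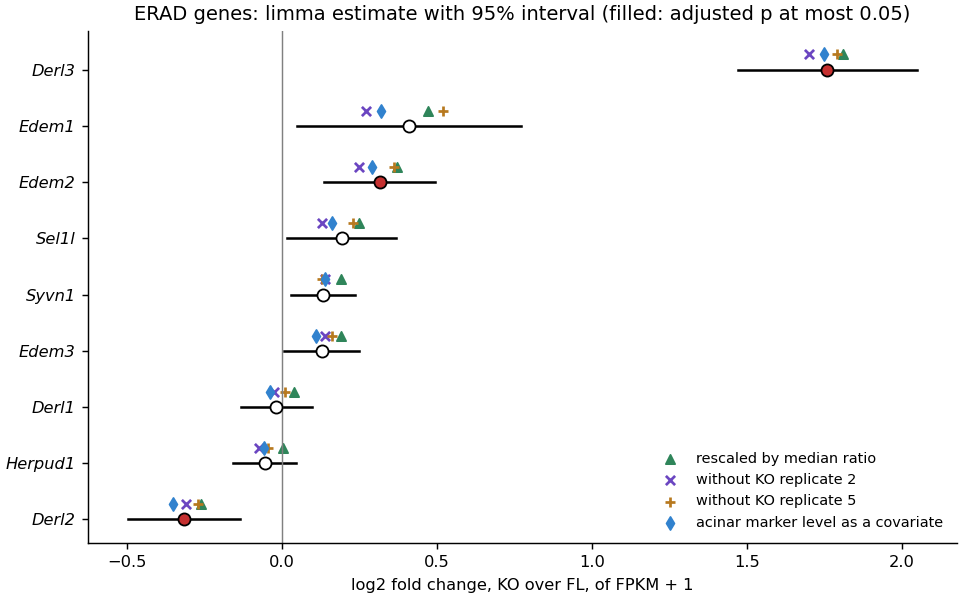
Horizontal axis: log2 fold change of KO over FL on log2(FPKM + 1) for each of the 9 genes, with the 95% interval from limma as a line and filled circles for genes called at an adjusted p no higher than 0.05. Smaller marks above each line give the estimate after rescaling by median ratio, without KO2, without KO5, or with the acinar marker level as a covariate; those of Derl3 lie between 1.70 and 1.81, while those of Derl1 fall on both sides of 0.

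How the libraries were scaled bore on the smaller differences. Rescaling moved the median log2 fold change of all tested genes from −0.06 to between −0.0179 and 0.0039. Under median ratio, upper quartile or quantile scaling, 6 of the 9 genes were called higher and 1 lower, the added genes being Sel1l, Syvn1, Edem1 and Edem3; after scaling to the same sum, 4 were called higher and 1 lower, the added genes being Syvn1 and Edem3. Over all tested genes, the same scalings gave 1614 higher and 1530 lower by median ratio, 1675 and 1455 by upper quartile, 1494 and 1708 by quantiles, and 1386 and 1528 at the same sum, beside 1183 and 2150 as deposited. Derl3, Edem2 and Derl2 were called in the same direction under each of these.

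Levels of the 9 genes spanned a wide range. In FL the order was Herpud1, Edem1, Sel1l, Derl1, Derl2, Edem2, Syvn1, Edem3 and Derl3, from 394 down to 9.40 FPKM. Neighbours whose library values overlapped there were Sel1l with Derl1, Derl2 with Edem2, and Syvn1 with Edem3. In KO the order was Herpud1, Edem1, Sel1l, Derl1, Edem2, Derl2, Syvn1, Edem3 and Derl3, from 379 down to 33.7 FPKM. Derl3, which lay apart below Edem3 in FL, overlapped with it in KO, as Syvn1 did with Edem3, Herpud1 with Edem1 and Derl1 with Edem2.

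Among mice of 1 genotype, the same libraries were highest or lowest for several of these genes. KO2 was the highest KO library for 5 genes (Derl3, Sel1l, Herpud1, Edem1 and Edem2), KO3 for the other 4, and KO5 was the lowest for 7 (all but Syvn1 and Herpud1). Among the FL libraries FL4 was the highest for 6 genes (Derl1, Derl2, Sel1l, Edem1, Edem2 and Edem3) and the lowest for Syvn1. After the group means were subtracted, the 36 pairs of genes had a median Pearson correlation of 0.33 over 10 libraries, each of which has 1 scaling for all genes. The 3 pairs above 0.7 were Edem1 with Edem2 (0.82, and 0.48 without the 2 farthest libraries), Sel1l with Edem1 (0.75 and 0.36) and Derl1 with Derl2 (0.74 and 0.43). The 2 farthest libraries were those farthest from the median for the gene named first in the pair. The other gene of the pair did not enter that choice. Derl3 and Derl2, which differed between the groups in opposite directions, had a correlation of −0.01 within groups, and the lowest was −0.47, between Sel1l and Syvn1 (−0.21 without the 2 farthest libraries, where Derl2 with Syvn1 was the lowest at −0.44). Other pairs had higher values without the 2 libraries farthest for the gene named first, such as Sel1l with Edem3 (0.25 and 0.63). These correlations are thus descriptions whose order rests on a few libraries.

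**Figure D4:**
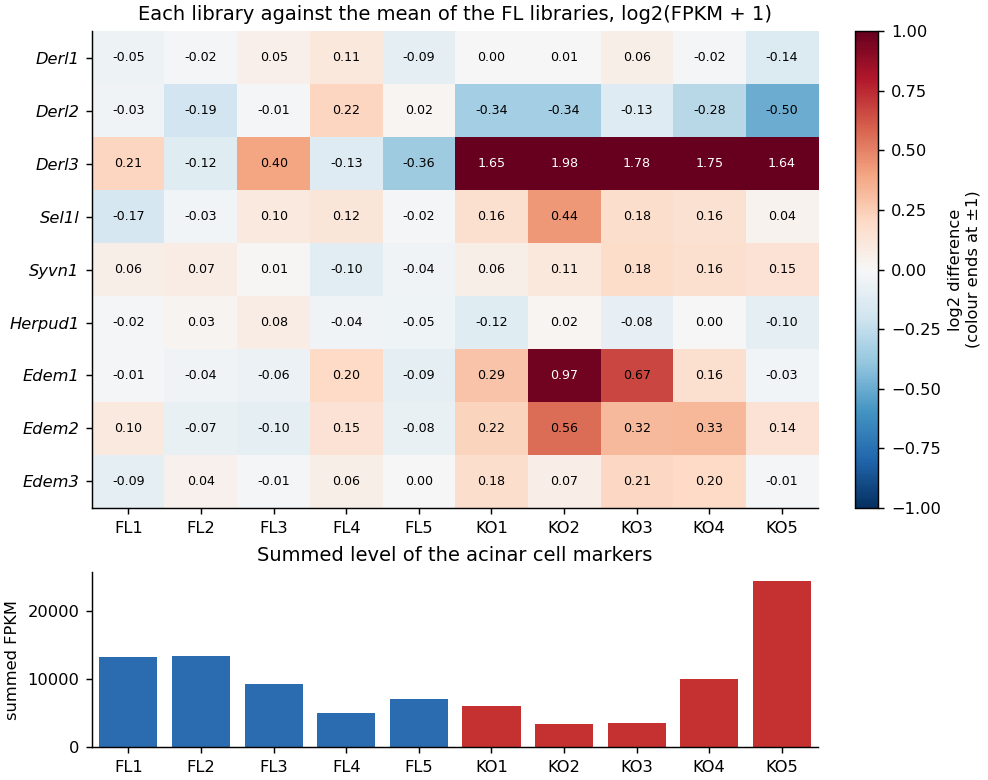
Upper panel: difference of each library from the mean of the FL libraries on log2(FPKM + 1) for the 9 genes, with the value in each cell and colours that end at ±1. Lower panel: summed FPKM of the 15 acinar markers in the same libraries, from 3379 in KO2 to 24567 in KO5. Derl3 is positive by 1.64 to 1.98 in all KO libraries, while Edem1 runs from 0.97 in KO2 to −0.03 in KO5.

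Few genes of the rest of the ERAD pathway were called. In 4 further lists of 74 genes, 73 of which were tested (Usp13 was too low), 3 were called higher and 3 lower, 8.22% of those tested beside 25.5% of all tested genes, with a median log2 fold change of −0.01. These counts were not stable: they were 13 and 0 under median ratio, 15 and 0 under upper quartile, 13 and 1 under quantile and 11 and 1 under same-sum scaling, 5 and 8 with the acinar covariate, and from 0 to 5 higher and from 1 to 8 lower with 1 library left out. Over all tested genes, the acinar covariate gave 1307 higher and 2771 lower. Leaving out 1 library gave 936 to 1130 higher and 1589 to 2367 lower over all tested genes. All 6 called genes of the 4 lists differed by less than 0.3 on the log2 scale and are named here after their values were seen. Of 13 lectins, mannosidases and luminal factors, Erlec1, a lectin that works beside EDEM proteins, was called higher (log2 fold change 0.24, limma adjusted p = 0.0422), and Sdf2l1, a partner of ER DnaJ proteins, was called lower (−0.19, limma adjusted p = 0.0302). The 3 uncalled genes of that list with the highest levels were Sep15 (current symbol Selenof), Dnajb9 and Uggt1, the glucosyltransferase that senses folding, with log2 fold changes of 0.12, −0.14 and −0.06. Sep15 was called higher in 4 alternatives (median ratio, upper quartile and same-sum scaling, and sample weights), at 0.17 to 0.19 and with limma adjusted p from 0.0159 to 0.0377. Uggt1 turned positive without KO5, where its level was lowest (112 FPKM), and under upper quartile and quantile scaling.

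Of 20 adaptors and scaffold genes, 0 were called by limma, beside 25.5% of all tested genes. At an unadjusted p below 0.05, 2 were higher and 1 lower, beside 1679 and 3249 of all tested genes. The exact Wilcoxon rank test called 0, beside 2500 of all tested genes. Vimp (Selenos) and Selk (Selenok), selenoproteins that bind derlins, and H13 (Hm13), the signal peptide peptidase, had log2 fold changes of 0.06, 0.08 and 0.07. Of 20 ubiquitin ligases and conjugating enzymes, Rnf185 alone was called, higher by 0.21 on the log2 scale (limma adjusted p = 0.0256). That is 5% of the list, beside 25.5% of all tested genes. The conjugating enzymes Ube2d3 and Ube2g2 had log2 fold changes of −0.17 and 0.13, neither called; Ube2d3 was called lower with the acinar covariate (−0.20, limma adjusted p = 0.00923) and Ube2g2 higher under upper quartile scaling (0.20, limma adjusted p = 0.0382). March6, a ligase for clients with a cytosolic lesion that the study examined in MIN6 cells, is added for that reason: it was at 55.99, 61.1, 61.3, 68.3 and 55.2 FPKM in FL and 55.96, 47.6, 59.3, 55.1 and 48.3 FPKM in KO. Those values overlapped, and its log2 fold change was −0.18 (SE 0.08, limma adjusted p = 0.116). Of the 20 tested genes of extraction and delivery to the proteasome, Ubqln4, a ubiquilin that escorts clients, was called higher (log2 fold change 0.17, limma adjusted p = 0.0391). Its relative Ubqln2 (−0.18, limma adjusted p = 0.0181) and Fbxo2 (−0.23, limma adjusted p = 0.0233), a ligase subunit that binds glycoproteins, were called lower. Together these are 15% of the tested genes of that list, beside 25.5% of all tested genes. Vcp, the extraction ATPase, averaged 84.3 ± 3.75 (FL) and 82.05 ± 5.54 (KO) FPKM (n = 5, SD), and the shuttle gene Rad23b had a log2 fold change of 0.04.

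Genes upstream of ERAD in the unfolded protein response were read in the same fit. Of 8 regulators of the XBP1 and ATF6 branches, 2 were called lower, 25% of the list beside 25.5% of all tested genes called and 16.5% called lower, and 0 were called higher by limma on the deposited values, 0 of them at an unadjusted p below 0.05. The 2 were the ER-bound factors Creb3l1 (−0.21, limma adjusted p = 0.0401) and Creb3l2 (−0.21, limma adjusted p = 0.0113), which were named after their values were seen. Creb3l1 was not called under any of the 4 rescalings (limma adjusted p from 0.128 to 0.15), and Creb3l2 was not called at the same sum (limma adjusted p = 0.0544). Xbp1, whose spliced form drives many ERAD genes, was at 235, 242, 266, 227 and 227 FPKM in FL and 252, 249, 264, 252 and 252 FPKM in KO. Its gene-level value does not tell spliced from unspliced transcript, and its log2 fold change was 0.09 (SE 0.05, limma adjusted p = 0.244). Ern1, the gene of the splicing enzyme IRE1α, and Mbtps1, the protease that activates ATF6, had log2 fold changes of 0.09 and −0.10, neither called; Ern1 was called higher under median ratio, upper quartile and quantile scaling (0.14, 0.15 and 0.14, limma adjusted p = 0.0328, 0.0232 and 0.0375), and Mbtps1 was called lower with the acinar covariate (−0.12, limma adjusted p = 0.0242).

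In the PERK branch, 2 of 6 genes were called higher and 1 lower, 50% of the list beside 25.5% of all tested genes. Ddit3, which encodes CHOP, had 341, 378, 456, 336 and 393 FPKM in FL and 625, 719.8, 651, 608 and 584 FPKM in KO, with no overlap and a log2 fold change of 0.75 (SE 0.09, limma adjusted p = 0.000163). Ppp1r15a, the GADD34 phosphatase subunit, rose by a log2 fold change of 0.43 (SE 0.06, limma adjusted p = 0.000289), and Chac1, a glutathione-degrading enzyme downstream of ATF4, had a log2 fold change of −0.37 (SE 0.06, limma adjusted p = 0.00129). All 3 had groups that did not overlap, as 19.1% of all tested genes had. The uncalled Atf4, Trib3 and Eif2ak3, the gene of PERK, had log2 fold changes of −0.04, 0.16 and 0.17, and that of Atf4 was between 0.00039 and 0.024 under the 4 rescalings.

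Of 12 ER chaperone genes, 1 was called higher and 2 lower, 25% of the list beside 25.5% of all tested genes. Creld2, a stress-induced ER protein, rose from 141 ± 5.23 to 183 ± 20.9 FPKM (n = 5, SD), a log2 fold change of 0.37 (SE 0.07, limma adjusted p = 0.00375), and its groups did not overlap. Hyou1, a large HSP70-like chaperone, and Manf, a secreted ER stress protein, were called lower, with log2 fold changes of −0.26 and −0.12, and were named after their values were seen. Manf (limma adjusted p = 0.0404) was not called under any of the 4 rescalings (limma adjusted p from 0.114 to 0.38), where Hyou1 was. Hspa5 (BiP) averaged 1747 ± 86.7 (FL) and 1819 ± 79.6 (KO) FPKM (n = 5, SD), a log2 fold change of 0.06 (SE 0.05, limma adjusted p = 0.434). Hsp90b1 and Calr, at 0.12 and −0.08, were not called. The rise of Derl3 on the log2 scale exceeded that of every gene in these 7 lists, where the highest was Ddit3.

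**Figure D5:**
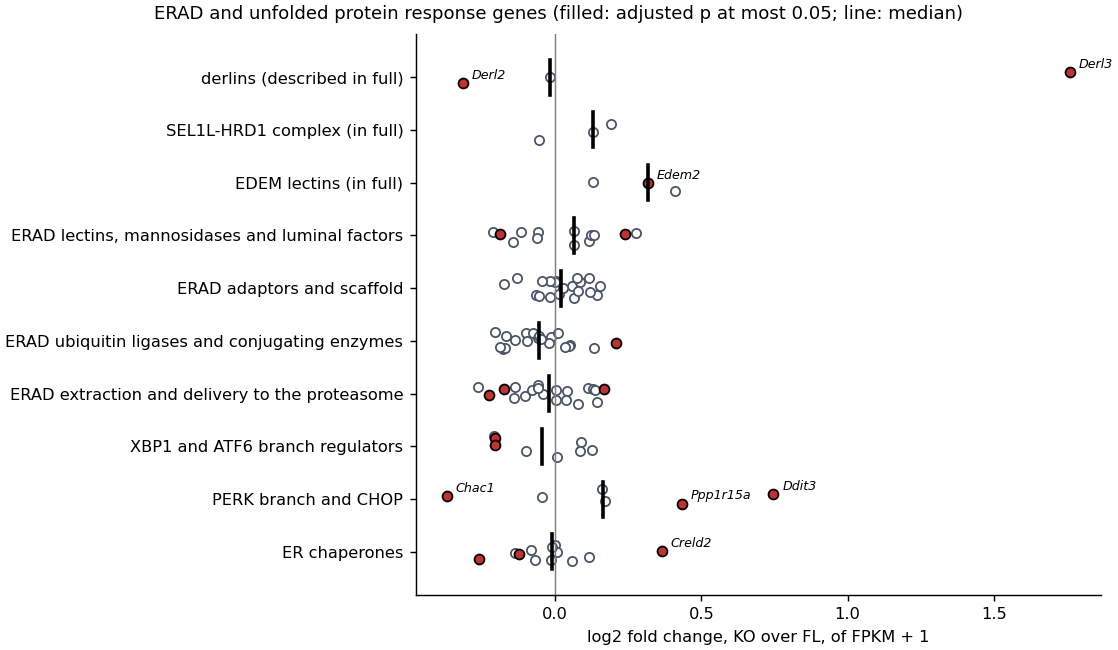
Each point is 1 tested gene, placed by its log2 fold change of KO over FL on log2(FPKM + 1), in the derlins, the SEL1L-HRD1 complex, the EDEM lectins, 4 other ERAD lists and 3 lists of the unfolded protein response. Filled points were called at an adjusted p no higher than 0.05, vertical lines mark each list's median, and called genes at 0.3 or more from 0 are named. The 4 other ERAD lists lie between −0.26 and 0.28, and Derl3 stands alone at 1.76.

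The genes whose pattern was most like that of Derl3 among mice of 1 genotype were C2cd2, Dhcr7, Hebp1, Arpc5l and Dpagt1. They had Pearson correlations with Derl3 of 0.931, 0.913, 0.903, 0.893 and 0.881 over 10 libraries after the group means were subtracted, the highest of 13064 genes compared. Picking the top 5 of so many genes over 10 libraries can give high values by selection alone. Whether these genes follow Derl3 was not tested. None of the 5 was called, with log2 fold changes of 0.02, 0.11, −0.08, −0.10 and 0.13 and adjusted p from limma of 0.849, 0.631, 0.666, 0.163 and 0.0703. Of the other 8 ERAD genes, Herpud1 had the highest correlation with Derl3 over the 10 libraries, at 0.67. Without the 2 libraries farthest for Derl3 it was 0.48, below Edem2 at 0.68 (0.33 over all 10), so the order rests on a few libraries.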

How the data were processed

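Islets of 5 FL and 5 KO mice were sequenced with single-end reads of stranded polyA libraries. According to the submitters' processing notes, reads were handled with STAR 2.5.2a and Cuffnorm 2.2.1 on mm10 (GRCm38); the annotation release and strand setting are not given in the sources used here. The authors deposited 1 table of FPKM values for 47340 genes, with 1 column per mouse, and all columns were mapped to mice. FPKM hold no read numbers, so no counting error was computed, and precision rests on 5 libraries a group. The titles number the libraries, and 1 library came from each mouse.

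FPKM were compared with limma 3.58.1 (lmFit, eBayes with a trend; R 4.3.3) on log2(FPKM + 1), with no covariate, over the 13065 genes that averaged 1 FPKM or more in either group. Adjustment followed Benjamini and Hochberg, with calls at 0.05. Exact two-sided permutation and Wilcoxon tests ran over all 252 splits. The procedure was tested on simulated data for this comparison: of 200 changed genes, 93 of 100 with a log2 change of 1 and 91 of 100 with 0.5 were called, all in the right direction, and 12 unchanged genes of 13065 simulated were called. The changed genes were drawn without the low-level genes, and noise was independent for each gene and library. The uncalled ERAD genes had estimates of 0.41 or less on the log2 scale, so these rates do not cover them.

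The 9 genes and all lists were chosen with earlier results of these data known. In the lists, genes called with an absolute log2 fold change of at least 0.3 and the 3 uncalled genes with the highest mean FPKM were named, with the 5 genes most correlated with Derl3 and Fitm2; others are named as added. Some genes that this rule or a list holds are not reported here by name, though they are part of the counts and sums. Older symbols were matched for 6 list genes. Coordinates are from GENCODE M21, where 5 of the 9 identifiers match with their version. Alternatives were other pseudocounts, filters, scalings, eBayes settings, weights, an acinar covariate, a block, a stricter threshold, rank tests, and each library left out. Summaries and plots used matplotlib 3.10.9, numpy 2.4.6 and pandas 2.3.3 in Python 3.11.15.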

Additional observations from a re-analysis of the deposited data

Results flagged for a closer look

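In 44 named genes, each group of 5 libraries was checked for 1 library far from the other 4, by the gap to the nearest library over the whole range against Dixon's 95% critical value for 5 samples. Of 88 groups 5 exceeded it, where chance gives about 4.4, and 1 of the 5 was among the 18 groups of the ERAD genes. Among the FL libraries, Edem1 was highest in FL4, at 216 FPKM, with a ratio of 0.756. Among the KO libraries, Uggt1 was lowest in KO5, at 112 FPKM, with a ratio of 0.807. Xbp1 was highest of the KO libraries in KO3, at 264 FPKM, with a ratio of 0.763. Creld2 was highest of the FL libraries in FL3, at 149.97 FPKM, with a ratio of 0.729. Of the KO libraries it was highest in KO2, at 219 FPKM, with a ratio of 0.745.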

How the results depend on the processing

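Derl3 was called higher in all 25 alternatives run (log2 fold change 1.67 to 1.87), as were Ddit3 (0.68 to 0.81), Ppp1r15a and Creld2, and Chac1, Hyou1 and Fitm2 were called lower in all 25. Derl2 and Edem2 were called in 23 of 25. They were lost at an adjusted p of 0.01, where Derl2 was at −0.32 and Edem2 at 0.32, and under the exact Wilcoxon rank test, with differences of medians of −0.32 and 0.39. Either of these alternatives left 1 ERAD gene higher and 0 lower, and at 0.01 the other ERAD lists held 0 and 0 and all genes 622 and 1044. The rank test called 872 genes higher and 1628 lower over all tested genes, and only genes whose groups did not overlap. The cause of each move below was not tested.

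Under median ratio, upper quartile and quantile scaling 6 ERAD genes were called higher, with Sel1l at 0.25, 0.26 and 0.27, Syvn1 at 0.19, 0.20 and 0.20, Edem1 at 0.47, 0.48 and 0.46 and Edem3 at 0.19, 0.19 and 0.19. At the same sum 4 were called higher, with Syvn1 at 0.18 and Edem3 at 0.17. Derl1 turned to 0.04, 0.048, 0.054 and 0.025 under the 4 scalings and to 0.018 as a difference of medians, Herpud1 to 0.0026, 0.011 and 0.00057 under the first 3, Atf4 to 0.015, 0.024, 0.022 and 0.00039, and Vcp to 0.017, 0.025, 0.013 and 0.0026. Calr was at 0.03 under quantiles, Uggt1 at 0.004 under upper quartile, 0.0038 under quantiles and 0.012 as a difference of medians, and Rad23b at −0.019 as a difference of medians. The other ERAD lists held 13, 15, 13 and 11 genes higher and 0, 0, 1 and 1 lower under the 4 scalings.

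With the acinar covariate 4 ERAD genes were higher, with Syvn1 at 0.14 and Edem1 at 0.32. The other lists then held 5 genes higher and 8 lower, beside 1307 and 2771 of all tested genes (1183 and 2150 in the main fit). With sample weights 4 ERAD genes were higher, with Edem1 at 0.37 and Edem3 at 0.16, and Rad23b was at −0.016. The other lists then held 8 genes higher and 7 lower, beside 1434 and 2839 of all tested genes. The other lists held 1 gene higher without a filter, beside 1260 of all genes in that fit. They held 5 lower with a mean of at least 5 FPKM, beside 1880 of all genes in that fit.

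With 1 library left out, ERAD genes called higher ranged from 2 to 4 (4 without KO5), and those lower stayed at 1. Over all tested genes, 936 to 1130 were then called higher and 1589 to 2367 lower (1114 and 1768 without KO5). Derl1 ranged from −0.04 to 0.011 (positive without FL4 or KO5), Edem1 from 0.27 to 0.52 and Edem3 from 0.11 to 0.16. The other lists ranged from 0 to 5 higher (0 without FL2, FL5, KO3 or KO4, 1 without FL1, KO1 or KO2, and 5 without KO5) and from 1 to 8 lower (1 without FL3, FL5, KO1 or KO4, and 8 without KO3). Uggt1 ranged from −0.086 to 0.01. Of their called genes, Sdf2l1 and Ubqln4 were each lost in 14 of 25 alternatives, Erlec1 in 11, Fbxo2 in 9, Rnf185 in 7 and Ubqln2 in 5, and Manf was lost in 17 and Creb3l1 in 15.

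Same-numbered FL and KO libraries did not resemble each other after the group means were subtracted: their deviations had correlations from −0.102 to 0.003. Whether the numbers pair mice, for example by litter, is not given, and these correlations cannot decide it. With the replicate number as a block, 2 ERAD genes were higher and 1 lower, the other lists held 1 and 2, and all genes 874 and 1494. With no read numbers, depth limits genes near 1 FPKM, and all 9 ERAD genes lay well above it.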
